A study of Drosophila melanogaster with 30 samples.

Results

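Transcripts of 10 sensory neuron channel genes, ppk, ppk26, Gr28b, Piezo, nompC, iav, nan, pain, TrpA1 and pyx, were followed in fruit fly embryos that carried extra transcription factors in their neurons. They were taken by symbol from tables of 14040 genes at embryonic stage 16 (St16) and 14077 genes at a later stage, once the trachea holds air (AFT), and all 10 were present in both. The study drove tagged transgenes with elav-Gal4, a driver active in neurons of the whole nervous system and mostly after their last division. The genotypes were elav-Gal4 over UAS-col-HA (col), over UAS-myc-lbe (lbe) and over both together (col + lbe), and elav-Gal4 over UAS-eya-HPC4 with UAS-Flag-Ap (ap + eya). Control embryos carried elav-Gal4 over an OregonR chromosome, so the driver was present in every group. Each genotype had 3 biological replicates of more than 200 whole embryos per stage, 30 samples in all.

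Sensory neurons of the fly body wall turn touch, heat, light and stretch into current through a small set of channels. Class IV dendritic arborisation neurons cover the larval skin, sense harmful stimuli and are known for the DEG/ENaC subunits ppk and ppk26. The transcription factor collier, whose gene is listed here as knot (kn) and which the study calls col, is known to specify class IV neurons. Chordotonal neurons are stretch receptors with a cilium that holds the TRP channels nompC, iav and nan. In a whole embryo these neurons are a small share of all cells. A higher or lower level can mean more or fewer such cells or more or less RNA per cell, and these cannot be told apart. RNA made in other cells cannot be told apart from theirs either.

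The values are TPM (transcripts per 1000000, scaled to transcript length), 1 per gene, genotype and stage, and are the authors' means. No spread between replicates could be computed, so there is no test below, and neighbouring genotypes in an order of levels cannot be said to differ. Differences are given in log2(TPM + 1), which understates the change of low genes, and a gene is called apart from 2-fold upwards, given 1 TPM or more in either genotype. The columns summed to between 996237 and 997034 TPM at St16 and between 984625 and 991941 TPM at AFT, a sum the unit sets, and the read depth behind a value is unknown. All 12 pan-neuronal, all 6 glial and all 8 muscle marker genes reached 1 TPM in some genotype at both stages, as whole embryos should show. At AFT the control had the highest sum of cuticle protein genes and the lowest sum of gut enzyme genes, and col + lbe the reverse. The 120 cuticle protein genes summed to 55850.1 TPM in col, 64413 TPM in lbe, 38678 TPM in col + lbe and 59195 TPM in ap + eya, against 75459.9 TPM in the control. The 8 gut enzyme genes summed to 2527 TPM in col, 1583 TPM in lbe, 3860.0 TPM in col + lbe and 2179 TPM in ap + eya, against 679 TPM in the control. Relative to the control, 36 cuticle genes were 2-fold lower for col, 23 for lbe, 48 for col + lbe and 34 for ap + eya. In col, lbe and ap + eya 6 of the 8 gut genes were 2-fold higher than in the control, and in col + lbe 7 were. Glial genes summed to between 584 and 682 TPM in the 4 genotypes with transgenes, against 822 TPM in the control, and muscle genes to between 33189 and 35056 TPM, against 38167 TPM in the control. At St16 the cuticle genes summed to 6512 TPM in col, 6036 TPM in lbe, 3321 TPM in col + lbe and 4736 TPM in ap + eya, against 7713 TPM in the control. There 42 of them were 2-fold lower than the control for col + lbe and 34 for ap + eya, but 1 each for col and for lbe, and col + lbe had 35 lower than col and 37 lower than lbe. The part of these differences in the values below was not tested, and col and lbe are therefore also compared directly. That comparison carries such differences too. At AFT 69 of the 86 cuticle genes compared were lower in col than in lbe and 17 were higher, with a median of -0.27. Of the 8 gut genes 6 were higher in col, 2 of them 2-fold, with a median of 0.56.

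The driven genes were first followed as a check of the labels. At St16, kn stood at 92.4 TPM in col, 18.2 TPM in lbe, 81.0 TPM in col + lbe and 26.0 TPM in ap + eya, against 25.9 TPM in the control. The AFT levels of kn were 43.4 TPM in col, 5.15 TPM in lbe, 104 TPM in col + lbe and 8.98 TPM in ap + eya, against 12.4 TPM in the control. It was lowest in lbe embryos at both stages. Transcripts of lbe, a homeobox gene, reached 61.2 TPM in lbe and 68.2 TPM in col + lbe embryos at St16 and 48.9 and 88.0 TPM at AFT, and at most 0.0838 TPM where lbe was not driven. Levels of ap in ap + eya embryos were 92.8 TPM (St16) and 29.8 TPM (AFT), against 10.5 and 3.03 TPM in the control. Those of eya were 88.8 and 25.7 TPM, against 11.2 and 2.50 TPM in the control. Both genes were also above the control in col + lbe embryos, where neither was driven. There ap was at 55.9 TPM (St16) and 31.9 TPM (AFT), and eya at 36.6 and 23.8 TPM. In col and lbe embryos ap was at most 15.2 TPM (St16) and 4.67 TPM (AFT), and eya at most 13.3 and 3.55 TPM. Reads from a transgene and from the gene itself are counted together.

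The DEG/ENaC subunit genes ppk and ppk26 were the members with the widest range between genotypes on the log2(TPM + 1) scale, high in col and low in lbe embryos at both stages. The gene ppk (FBgn0020258, 2L:14378218-14381172, minus strand, BDGP6.54) encodes a channel subunit needed for responses of class IV neurons to harmful touch. At AFT it was at 30.5 TPM in col, 2.64 TPM in lbe, 16.9 TPM in col + lbe and 8.68 TPM in ap + eya, against 9.65 TPM in the control. Its level in col was 3.16 times that of the control (log2 difference 1.56), and its level in lbe 0.274 times (-1.55). The ap + eya embryos lay near the control (-0.14). At St16 the gene was at 4.06 TPM in col, 0.931 TPM in lbe, 1.77 TPM in col + lbe and 1.88 TPM in ap + eya, against 2.62 TPM in the control. These differences had the same direction in col (0.48) and in lbe (-0.91) as at AFT, but neither reached 2-fold on the log2(TPM + 1) scale.

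Its partner gene ppk26 (FBgn0035785, 3L:7456149-7458608, plus strand), whose product is known to act together with ppk in class IV neurons, followed the same order at the ends. At AFT ppk26 was at 32.8 TPM in col, 4.05 TPM in lbe, 27.6 TPM in col + lbe and 12.7 TPM in ap + eya, against 11.3 TPM in the control. At St16 it was at 3.83 TPM in col, 0.740 TPM in lbe, 1.90 TPM in col + lbe and 2.01 TPM in ap + eya, against 1.75 TPM in the control. In each stage col was highest and lbe lowest for both genes. The log2 differences from the control were 1.46 in col and -1.29 in lbe at AFT, and 0.82 and -0.66 at St16. Both genes have a single annotated transcript and share no exon bases with another gene in that annotation. The authors' step from transcripts to genes is unstated in the sources used here, so how isoforms entered the values is unknown.

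**Figure D1:**
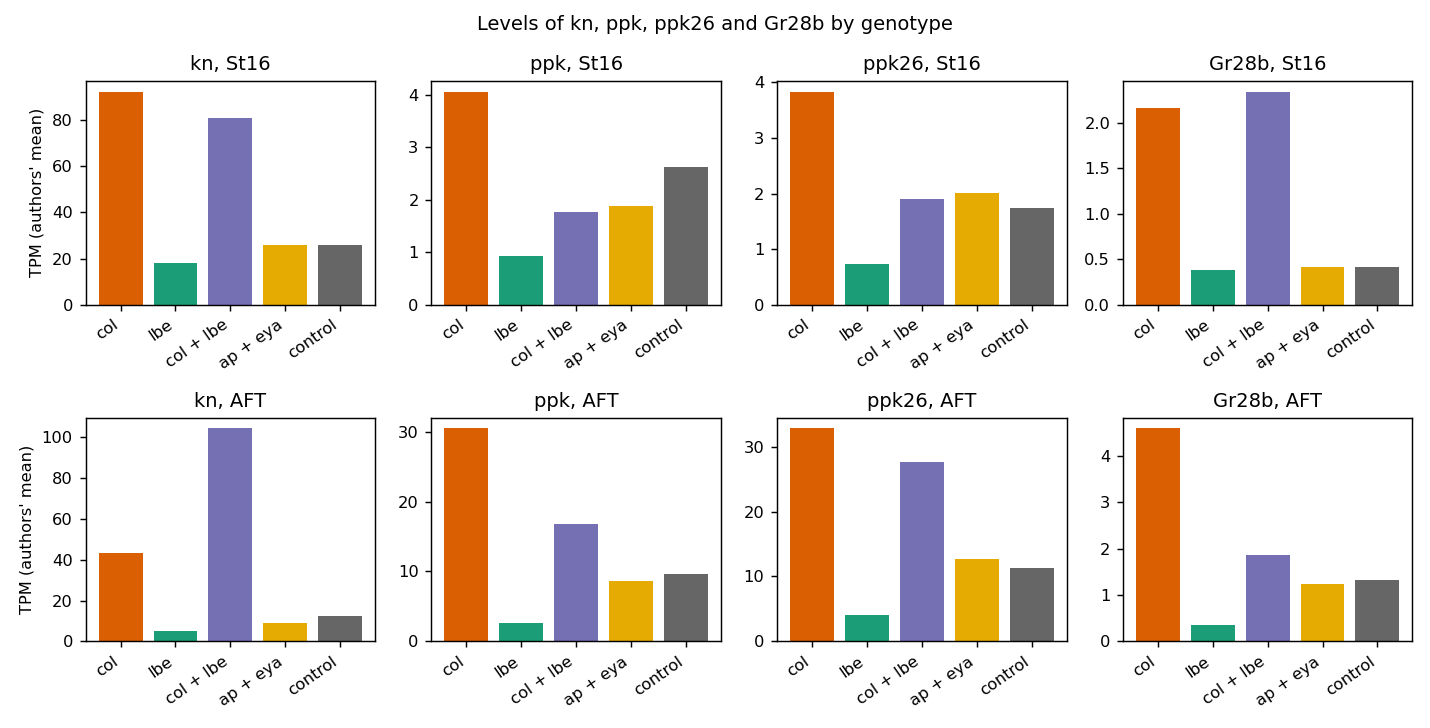
Levels of kn, ppk, ppk26 and Gr28b in TPM (vertical axes, each starting at 0) at St16 (top) and AFT (bottom); each bar is the authors' mean of a genotype, with no error available. The bars of ppk and ppk26 are highest in col and lowest in lbe at both stages, while kn at AFT is higher in col + lbe (104 TPM) than in col (43.4 TPM).

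The gustatory receptor gene Gr28b (FBgn0045495, 2L:7454826-7462247, minus strand, 5 annotated transcripts) is known for light sensing in class IV neurons and for warmth sensing in adult flies. It was low in every genotype. At AFT it was at 4.60 TPM in col, 0.356 TPM in lbe, 1.87 TPM in col + lbe and 1.24 TPM in ap + eya, against 1.32 TPM in the control. At St16 it was at 2.17 TPM in col, 0.377 TPM in lbe, 2.34 TPM in col + lbe and 0.416 TPM in ap + eya, against 0.419 TPM in the control. At St16 Gr28b passed the 1 TPM filter only through the genotypes that carry UAS-col-HA, and a gene that passes in that way had to differ. The log2 difference from the control was 1.16 in col and 1.24 in col + lbe at St16, TPM ratios of 5.17 and 5.59. At AFT it was 1.27 in col, 0.31 in col + lbe and -0.78 in lbe.

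Counted over the 10 members, ppk, ppk26 and Gr28b differed 2-fold or more from the control on the log2(TPM + 1) scale in some genotype. No other member did in any of the 8 comparisons with the control. At AFT these 3 were higher in col, where 1.91% of 9984 genes compared were higher. In lbe, ppk and ppk26 were lower, where 1.99% of 9990 genes were lower. In col + lbe, ppk26 alone was higher (1.22, a TPM ratio of 2.44), where 3.33% of 10119 genes were higher. At St16, Gr28b was the only member apart, higher in col and in col + lbe, where 0.286% of 9799 and 0.428% of 9822 genes were higher. No member was apart in lbe at St16 (0.53% of genes in either direction) or in ap + eya at St16 (1.61%) or AFT (4.45%). With a pseudocount or a filter of 5 TPM no member was apart from the control at St16. Neither setting could show ppk, ppk26 or Gr28b apart there, as each was under 5 TPM in every genotype. At AFT no member was apart in lbe or col + lbe with a pseudocount of 5 TPM, and none in col, lbe or col + lbe at a 3-fold threshold. The 4 comparisons of a stage share its control column. The members were chosen with earlier results of these data known, so the counts describe them and are no evidence about sensory channels as a class.

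The authors' deposited table, which lists plain TPM ratios of 2 or more with no pseudocount, holds more of the members. For lbe at St16 the authors' deposited table gives log2 ratios of -1.49 for ppk and -1.24 for ppk26. For col at St16 the authors' deposited table gives 1.13 for ppk26 and 2.37 for Gr28b. For lbe at AFT the authors' deposited table adds Gr28b at -1.89 and TrpA1 at -1.07. It also lists nompC at AFT, with -1.05 in col and -1.18 in col + lbe in the authors' deposited table.

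The comparison of col with lbe embryos does not use the control. At AFT the level in col was 11.5 times that in lbe for ppk (log2 difference 3.11), 8.11 times for ppk26 (2.74) and 12.9 times for Gr28b (2.05). These were the members apart, all higher in col, where 0.667% of 9902 genes were higher. At St16 the same 3 genes were apart and higher in col, by 1.39 for ppk, 1.47 for ppk26 and 1.20 for Gr28b. There 0.205% of 9746 genes were higher. No member was apart with a pseudocount or filter of 5 TPM, but genes under 5 TPM, such as these 3, cannot be apart with either. All 3 were under 1 TPM in lbe at St16 and passed the filter only through col, where they were high, so nothing is read from this count. The same holds for Gr28b at AFT, at 0.356 TPM in lbe. The heat channel gene TrpA1 came next at AFT, with 2.05 TPM in col and 0.815 in lbe (0.75). Over the 8 members that passed the filter at AFT the median difference was 0.44, beside 0.02 over all genes, and over the 7 that passed at St16 it was 0.01, beside -0.02. Gr28b and TrpA1 at AFT, and ppk, ppk26 and Gr28b at St16, passed only through col. Nothing is therefore read from either median. Pan-neuronal genes were less far apart, summing to 547 TPM in col and 466 in lbe at AFT and to 430.5 TPM in col and 420.4 in lbe at St16, with none of 12 at 2-fold. All 12 were slightly higher in col than in lbe at AFT, with a median difference of 0.19, and the part of this in the values of the channel genes was not tested.

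**Figure D2:**
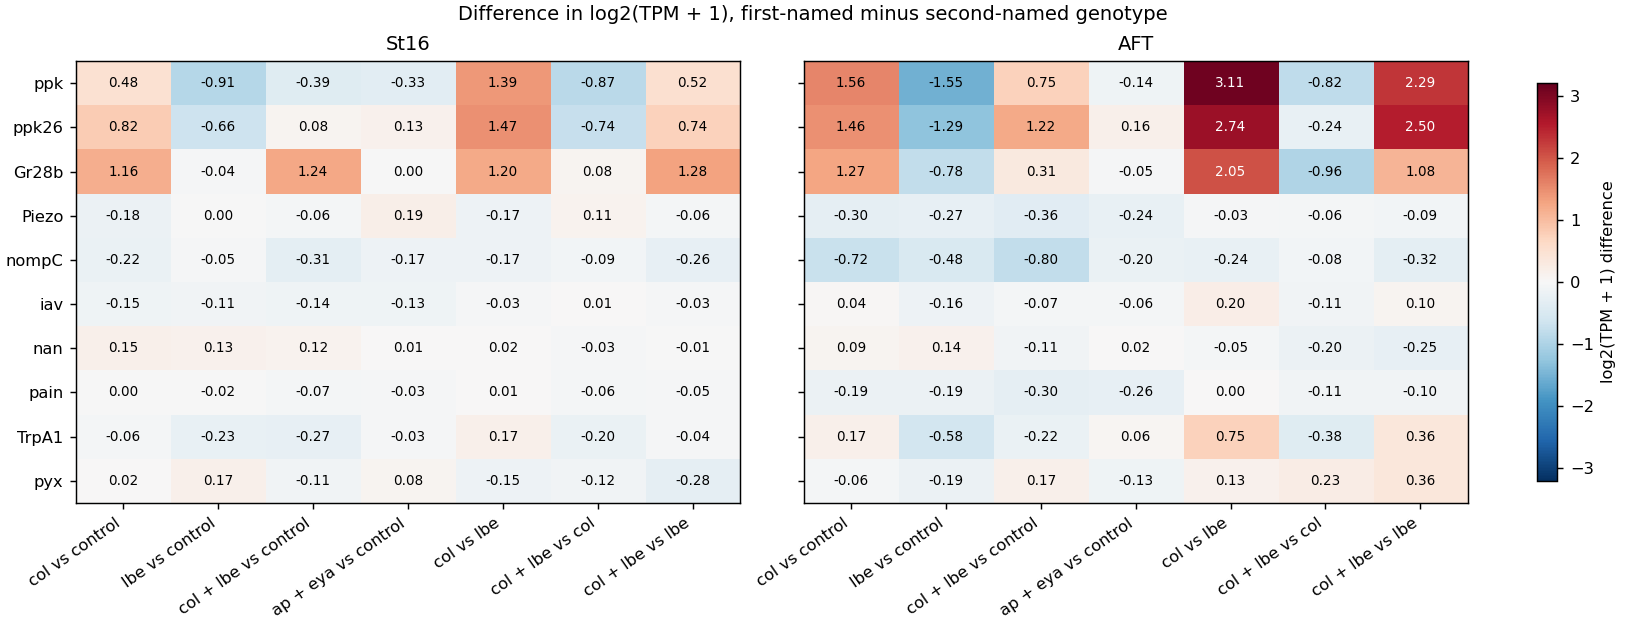
Differences in log2(TPM + 1) of the 10 channel genes (rows) in 7 comparisons (columns) at St16 (left) and AFT (right); red is higher and blue lower in the genotype named first. The upper 3 rows hold the large values, reaching 3.11 for ppk in col vs lbe at AFT, and the ap + eya columns span -0.33 to 0.19 (St16) and -0.26 to 0.16 (AFT).

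Embryos with both transgenes were set against each single transgene. At St16 ppk was at 1.77 TPM in col + lbe and 4.06 in col (log2 difference -0.87), and ppk26 at 1.90 TPM in col + lbe and 3.83 in col (-0.74). Gr28b did not follow them at that stage, at 2.34 TPM in col + lbe and 2.17 in col (0.08). At AFT ppk was at 16.9 TPM in col + lbe and 30.5 in col (-0.82), and Gr28b at 1.87 TPM in col + lbe and 4.60 in col (-0.96). The ppk26 level was closer, and was at 27.6 TPM in col + lbe and 32.8 in col (-0.24). No member was 2-fold apart on the log2(TPM + 1) scale between col + lbe and col at either stage. On that scale 1.67% of 9738 genes were apart at St16 and 2.54% of 10007 at AFT. In plain TPM the level in col was 2.30 times that in col + lbe for ppk, 2.02 times for ppk26 and 0.924 times for Gr28b at St16. At AFT these ratios were 1.81 for ppk, 1.19 for ppk26 and 2.46 for Gr28b. The AFT log2 differences lie beside a median of 0.19 over all genes. Those of ppk (-1.01) and Gr28b (-1.10) passed 2-fold once columns were rescaled by the median ratio.

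Against lbe alone, col + lbe embryos had higher levels of all 3 genes. At AFT the log2 differences were 2.29 for ppk, 2.50 for ppk26 and 1.08 for Gr28b, and 2.8% of 10008 genes were higher. That of Gr28b was 0.96, under 2-fold, once columns were rescaled by the median ratio. At 0.356 TPM in lbe, Gr28b passed the filter at AFT only through col + lbe, where it was high. At St16 they were 0.52, 0.74 and 1.28, and Gr28b was the member apart, where 0.287% of 9747 genes were higher. These 3 genes passed the filter at St16 only through col + lbe, where they were high, and Gr28b was not apart at a 3-fold threshold. Gr28b was not apart with a pseudocount or filter of 5 TPM either, but no gene under 5 TPM can be. The level in col + lbe was also set against the sum of both single differences on the log2 scale. At St16 this non-additive value was 0.04 for ppk, -0.08 for ppk26 and 0.12 for Gr28b, with a median of 0.09 over all genes. At AFT it was 0.73 for ppk, 1.05 for ppk26 and -0.19 for Gr28b, with a median of 0.31, and 8.39% of all genes reached 1 in either direction. At AFT kn was at 104 TPM in col + lbe and 43.4 in col, while ppk was lower in col + lbe than in col. The other genotypes came in the same order for kn and ppk, with the control above ap + eya and lbe lowest.

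Because TPM is scaled to length, ppk and ppk26 levels can be set side by side within a column. The ratio of ppk26 to ppk was 1.08 for col, 1.53 for lbe, 1.64 for col + lbe and 1.47 for ap + eya at AFT, against 1.17 in the control. At St16 it was 0.944 for col, 0.795 for lbe, 1.07 for col + lbe and 1.07 for ap + eya, against 0.666 in the control. The pair thus stayed within a narrow range of each other while their levels spanned 11.5 times (ppk) and 8.11 times (ppk26) between genotypes at AFT. A profile over the 10 columns, centred within each stage, gave ppk26 as the gene most like ppk among 1089 genes of at least 5 TPM and a range of at least 1 in log2(TPM + 1), with a Pearson r of 0.971. The next were Ir76b (0.876), Ebp (0.791), pre-mod(mdg4)-U (0.787) and Cyp6w1 (0.754). For ppk26 they were ppk, Ir76b (0.835), pre-mod(mdg4)-U (0.822), CG32801 (0.807) and CG32052 (0.801). Gr28b stayed under 5 TPM in every column and so was outside this ranking. Its r was 0.791 with ppk and 0.802 with ppk26. The 10 columns are 5 genotypes at both stages and share their tables, so r describes these means.

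The touch and hearing channel nompC (FBgn0016920, 2L:5346200-5365760, plus strand), a TRPN channel of chordotonal and class III neurons, had another order. Its AFT level was 1.50 TPM in col, 1.96 TPM in lbe, 1.37 TPM in col + lbe and 2.57 TPM in ap + eya, against 3.11 TPM in the control. Its St16 level was 1.24 TPM in col, 1.52 TPM in lbe, 1.11 TPM in col + lbe and 1.32 TPM in ap + eya, against 1.61 TPM in the control. The control was highest and col + lbe lowest at both stages. The log2 differences at AFT were -0.72 for col, -0.48 for lbe, -0.80 for col + lbe and -0.20 for ap + eya, none of them 2-fold on this scale. With the median of the other 4 genotypes in place of the control, those of col and col + lbe came to -0.38 and -0.46.

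The TRPV channel subunits iav (FBgn0086693, X:6813978-6818156, plus strand) and nan (FBgn0036414, 3L:14186249-14189648, minus strand) form together the channel that chordotonal neurons need for hearing. Both were near the lower limit of the comparison. At AFT iav was at 0.884 TPM in col, 0.637 TPM in lbe, 0.750 TPM in col + lbe and 0.754 TPM in ap + eya, against 0.832 TPM in the control. At St16 it lay between 0.882 and 1.08 TPM, and nan between 0.520 and 0.691 TPM. At AFT nan was at 0.537 TPM in col, 0.595 TPM in lbe, 0.340 TPM in col + lbe and 0.470 TPM in ap + eya, against 0.446 TPM in the control. No genotype brought nan to 1 TPM at either stage, and iav reached it only in the St16 control, so at these levels little can be said of differences.

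Of the 3 TRPA channel genes among the members, pain (FBgn0060296, 2R:24921505-24928275, minus strand), which is needed for avoidance of harmful heat, was the highest. It was at 25.6 TPM in col, 25.6 TPM in lbe, 23.7 TPM in col + lbe and 24.3 TPM in ap + eya at AFT, against 29.3 TPM in the control. At St16 the 5 genotypes lay between 17.7 and 18.6 TPM, the narrowest range of any member as a ratio of highest to lowest. TrpA1 (FBgn0035934, 3L:8894404-8905200, minus strand), a sensor of warmth and irritants, was at 2.05 TPM in col, 0.815 TPM in lbe, 1.33 TPM in col + lbe and 1.84 TPM in ap + eya at AFT, against 1.71 TPM in the control. It was lowest in lbe, where ppk, ppk26 and Gr28b were lowest too, and it stayed under 1 TPM at St16. The high-temperature channel gene pyx (FBgn0035113, 3L:217932-223069, minus strand) lay between 3.17 and 4.36 TPM at AFT and between 3.85 and 4.87 TPM at St16. In the annotation pain shares 173 exon bases with NaCP60E, and pyx 477 with CG13877 and 127 with Kaz1-ORFB, all on opposite strands. The sources used here do not say whether counting used strand, so reads in those stretches cannot be assigned with certainty.

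Piezo (FBgn0264953, 2L:8163073-8190137, plus strand, 11 annotated transcripts) encodes a stretch-gated channel that class IV neurons use beside ppk and ppk26 for harmful touch. Its level at AFT was 11.7 TPM in col, 12.0 TPM in lbe, 11.2 TPM in col + lbe and 12.2 TPM in ap + eya, against 14.6 TPM in the control. Piezo at St16 was at 11.3 TPM in col, 12.9 TPM in lbe, 12.3 TPM in col + lbe and 14.9 TPM in ap + eya, against 12.9 TPM in the control. The AFT differences of -0.36 to -0.24 stand beside medians over all genes of -0.10 for col, -0.13 for lbe, 0.11 for col + lbe and -0.11 for ap + eya. In col against lbe, Piezo differed by -0.03 at AFT and -0.17 at St16.

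**Figure D3:**
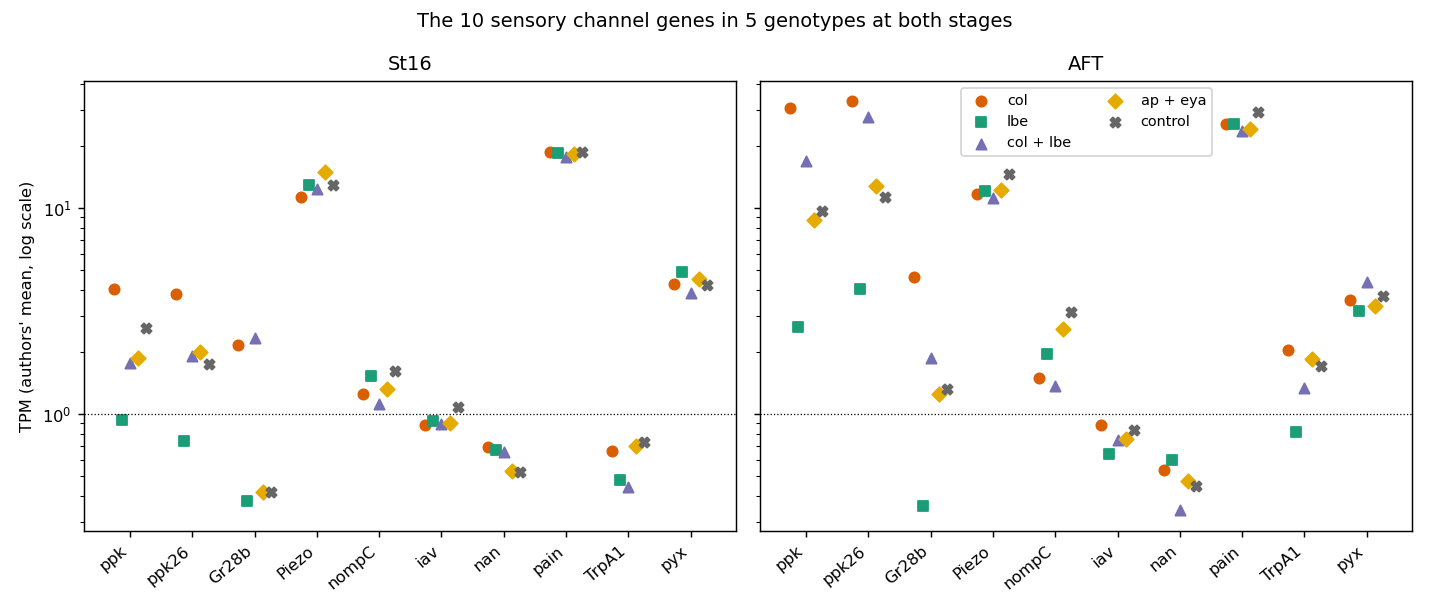
Level of each of the 10 channel genes in TPM (log axis) in the 5 genotypes at St16 (left) and AFT (right); each symbol is the authors' mean and the dotted line marks 1 TPM. The symbols of ppk, ppk26 and Gr28b spread widely, while those of Piezo, pain and pyx nearly coincide and iav and nan lie at or under about 1 TPM.

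Between the stages, ppk and ppk26 were higher at AFT than at St16 in every genotype. The AFT level of ppk was 7.51 times the St16 level in col, 2.83 times in lbe, 9.54 times in col + lbe, 4.63 times in ap + eya and 3.68 times in the control. For ppk26 these ratios were 8.57 for col, 5.47 for lbe, 14.6 for col + lbe, 6.35 for ap + eya and 6.49 for the control. The differences of ppk and ppk26 on the log2(TPM + 1) scale, from 0.91 to 3.31, stand beside all-gene medians of -0.45 to -0.21 and 18.3% to 20.6% of genes at least 2-fold higher. The level of pain was higher at AFT as well, by 0.39 to 0.63, while pyx moved by -0.49 to 0.14 and Piezo by -0.26 to 0.17. The AFT level of Gr28b was 2.12 times the St16 level for col, 0.943 times for lbe, 0.799 times for col + lbe, 2.99 times for ap + eya and 3.15 times for the control. These values cross separately made tables, and St16 libraries were read as 50 bp single reads and AFT libraries as 150 bp pairs, so the stage cannot be told apart from the read layout.

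Other genes of the same families and cells were followed as lists. Of the other 29 DEG/ENaC genes, 4 reached 1 TPM in some genotype at St16 and 5 at AFT. No gene of this list reached 2-fold on the log2(TPM + 1) scale in the 14 comparisons. For the lists below, 2-fold is meant on that scale too, and plain TPM ratios of low genes can be larger. Named after its values were seen, ppk23, a pheromone-sensing channel subunit in adult flies, was at 0.655 TPM in col and 2.01 in lbe at AFT (-0.87), the opposite order to ppk. Of 7 other TRP genes, 2 passed 1 TPM at St16 and 5 at AFT, and none was 2-fold apart, with differences of -0.57 to 0.56. Of 9 other mechanosensory and excitability genes none was 2-fold apart on that scale either, with differences of -0.72 to 0.99. Tmc and Pzl were listed at 0 in every column. Named after its values were seen, para was at 20.3 TPM in col, 20.2 TPM in lbe and 20.7 TPM in ap + eya at AFT. It was at 12.0 TPM in col + lbe and 9.90 TPM in the control. The log2 differences of para from the control were 0.97 in col, 0.96 in lbe, 0.99 in ap + eya and 0.25 in col + lbe. Of 14 identity factors of the peripheral nervous system, such as ct and ab, which shape dendritic arborisation neurons, none was 2-fold apart, with differences from -0.49 to 0.51.

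The sensory cilium list held 21 genes, of which 16 reached 1 TPM at St16 and 14 at AFT. A single gene of the list was 2-fold apart on the log2(TPM + 1) scale in the 14 comparisons. DCX-EMAP, which chordotonal neurons need for mechanical responses, was at 2.61 TPM in col, 4.95 TPM in lbe, 2.62 TPM in col + lbe and 2.48 TPM in ap + eya at AFT, against 6.10 TPM in the control. The log2 difference was -1.03 in ap + eya, -0.97 in col and -0.97 in col + lbe, and -0.25 in lbe. At St16 DCX-EMAP was at 0.935 TPM in col, 1.77 TPM in lbe, 0.814 TPM in col + lbe and 0.650 TPM in ap + eya, against 1.80 TPM in the control. Like nompC, it was highest in the control and, among the single transgenes, lower in col than in lbe at both stages. Named after its values were seen, nompA, whose product links the cilium to its cap, stayed between 27.5 and 33.6 TPM at St16 and between 7.90 and 9.72 TPM at AFT.

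**Figure D4:**
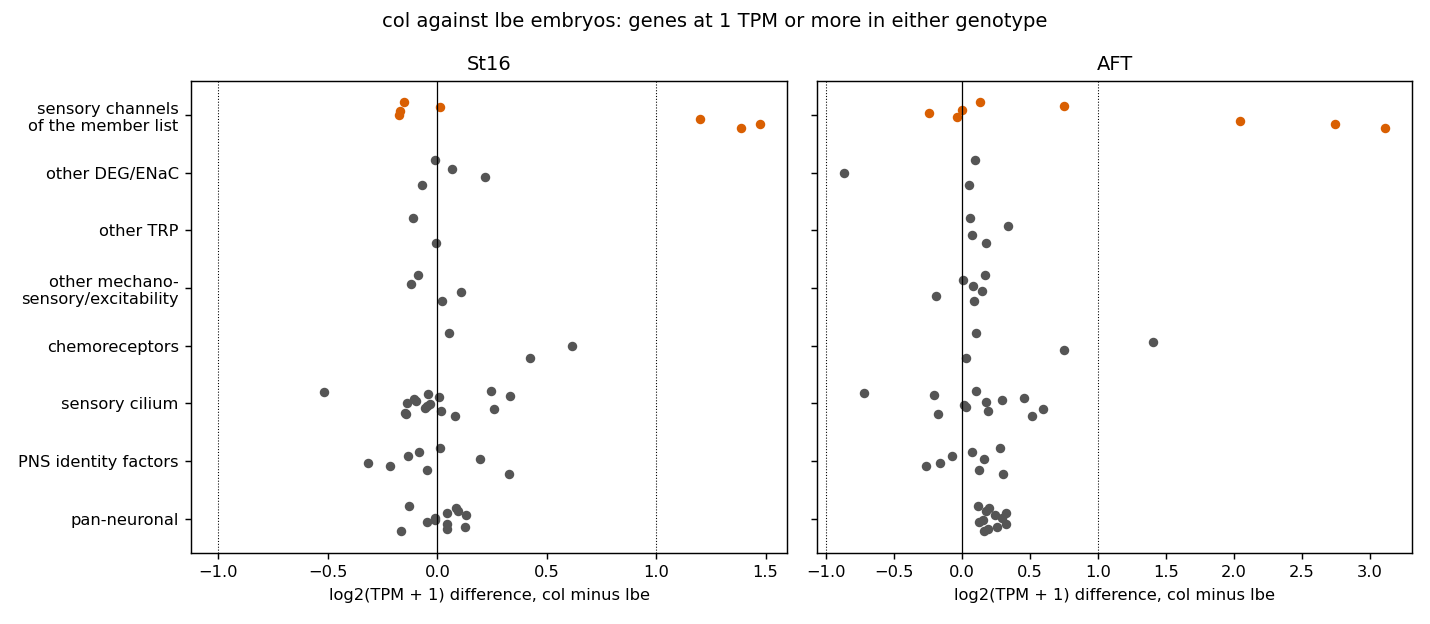
Difference in log2(TPM + 1) between col and lbe embryos (horizontal axis, col minus lbe) at St16 (left) and AFT (right), 1 point per gene with at least 1 TPM in either genotype, in rows by gene list; dotted lines mark 2-fold. The points beyond 2-fold are ppk, ppk26 and Gr28b at both stages and, among the other lists, the chemoreceptor gene Ir76b at AFT (1.40).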

How the data were processed

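Whole-embryo RNA was sequenced to 30 to 50 M reads a sample, as the labels' protocols say. The deposited values are TPM. The submitters' processing notes name kallisto 0.43.1 and the build BDGP6. The step from transcripts to genes is unstated in the sources used here. Each deposited table holds 1 TPM column per genotype. Values between 10 and 100 TPM were multiplied by 3 and read in units of their 4th decimal: 56.2% (St16) and 54.5% (AFT) then lay within 0.02 of whole, and with factors of 1, 2, 4 and 5 only 19.9% to 28.0%. The columns were therefore taken as means of 3. The planned limma fit could not be made. The tables, as deposited, also hold the authors' log2 ratios of TPM for genes 2-fold or more apart.

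Differences of log2(TPM + 1) were computed over all genes with 1 TPM or more in either genotype. The calculation was tried on simulated data, with changes larger than 2-fold planted in genes well above 1 TPM. That trial does not cover low genes or changes near 2-fold. Members and lists were chosen with earlier results of these data known. All members are named, of each list up to 4 genes that were 2-fold apart, the driven genes, and the 5 genes most like ppk and ppk26; any other gene is marked as named after its values were seen. Of the listed symbols, Tmem63 was read as CG11210 and che-13 as IFT57, and tectonic and Gliotactin were not matched. Positions are from the BDGP6.54 annotation; the tables hold none. Alternatives were pseudocounts of 0.1 and 5 TPM, the plain ratio, no filter, a filter of 5 TPM, 3-fold, median-ratio rescaling, quantile normalisation and the median of the other 4 genotypes as the reference. Python 3.11.15, pandas 2.3.3 and numpy 2.4.6 were used.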

Additional observations from a re-analysis of the deposited data

How the results depend on the processing

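No paired analysis was possible because each group has 1 deposited mean, and no replicate could be left out for the same reason. The number of members apart moved under several settings, and the cause was not tested. Counts are listed where they changed by over 1.5 times, or to or from 0, and smaller changes are left out. Among those left out, the plain ratio at AFT also put nompC apart in col vs control (0.482) and TrpA1 in col vs lbe (2.51). At St16, with a pseudocount of 0.1 TPM the count was 2 in col vs control, lbe vs control and col + lbe vs lbe, and 1 in col + lbe vs col. The plain ratio gave 2 in each of these 4 comparisons. With a pseudocount of 5 TPM, a filter of 5 TPM or a 3-fold threshold it was 0 in col vs control, col + lbe vs control, col vs lbe and col + lbe vs lbe. The pseudocount and filter of 5 TPM could not show ppk, ppk26 or Gr28b apart at St16, as each was under 5 TPM in every genotype. At AFT, with 0.1 TPM the count was 2 in col + lbe vs control and 1 in col + lbe vs col. With the plain ratio it was 4 in lbe vs control, 2 in col + lbe vs control and 1 in col + lbe vs col. With 5 TPM it was 0 in lbe vs control and col + lbe vs control, and at 3-fold 0 in these and in col vs control. Rescaling by the median ratio gave 2 and quantile normalisation 1 in col + lbe vs col at AFT. The rescaling moved the median of all genes by -0.18 there, by -0.21 in col + lbe vs lbe, by 0.12 in lbe vs control and by 0.10 in ap + eya vs control. For the non-additive value at AFT, ppk26 was the member at 1 or more, and the count was 0 with a pseudocount of 5 TPM, rescaling and quantile normalisation. With the median of the other 4 genotypes as the reference no count changed by over 1.5 times, and at AFT ppk stood at 1.63 in col and -1.97 in lbe, and ppk26 at 1.38 and -2.07. No member that was 2-fold apart changed direction under rescaling, quantile normalisation or the changed reference. The other alternatives, which are pseudocounts, the plain ratio, filters and the threshold, cannot change a direction. Depth behind single values is unknown, which limits every value under about 1 TPM.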

Other observations

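Among 11 chemoreceptor genes, 4 reached 1 TPM at St16 and 5 at AFT. A single gene was 2-fold apart on the log2(TPM + 1) scale in the 14 comparisons. The ionotropic co-receptor gene Ir76b was at 5.77 TPM in col, 1.56 TPM in lbe, 3.31 TPM in col + lbe and 4.20 TPM in ap + eya at AFT, against 3.76 TPM in the control. It differed by 1.40 between col and lbe, the same order of genotypes at the ends as ppk. At St16 Ir76b was at 1.86 TPM in col, 0.870 TPM in lbe, 0.908 TPM in col + lbe and 1.28 TPM in ap + eya, against 1.05 TPM in the control. Named after its values were seen, the co-receptor gene Ir25a was lower in both genotypes with UAS-myc-lbe. At AFT it was at 2.26 TPM in col, 0.942 TPM in lbe, 0.990 TPM in col + lbe and 3.11 TPM in ap + eya, against 2.00 TPM in the control. At St16 it was at 2.78 TPM in col, 1.82 TPM in lbe, 1.58 TPM in col + lbe and 4.03 TPM in ap + eya, against 3.27 TPM in the control. The level of Ir25a in col + lbe thus lay next to that in lbe at both stages, whereas ppk26 at AFT lay next to col.

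Rfx, a regulator of genes of the sensory cilium and also named after its values were seen, was at 3.22 TPM in col, 1.95 TPM in lbe, 3.17 TPM in col + lbe and 3.12 TPM in ap + eya at AFT, against 4.18 TPM in the control. At St16 it was at 8.11 TPM in col, 7.61 TPM in lbe, 5.78 TPM in col + lbe and 9.71 TPM in ap + eya, against 10.2 TPM in the control. The control was highest at both stages.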
